A study of Mus musculus with 9 samples.

Results

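Neither group described here lost the gene that the study set out to delete, and the comparison is between its pair of control arms. The ethanol control (EtOH control) consisted of E14 mouse embryonic stem (ES) cells with Zbtb11 lox/lox alleles and an ERt2-Cre gene at Rosa26, given the carrier ethanol. The 4OHT control consisted of E14 cells that were wild type at Zbtb11 and at Rosa26, given 250 nM 4-hydroxytamoxifen (4OHT). Both were collected after 72 h, and both came from feeder-free cultures on gelatin in serum with LIF. The comparison was chosen by group label and used 6 of the 9 RNA libraries of the series, 3 in each group. The remaining 3 libraries are labelled Zbtb11 KO: they share the floxed ERt2-Cre line with the ethanol control and the 250 nM 4OHT with the 4OHT control. The labels give the 4OHT control the purpose of showing non-specific effects of 4OHT. Because the line and the drug change together between these arms, their parts in any difference below cannot be told apart. Whether the replicates of a group were separate cultures is not stated in the labels. The p-values therefore reflect how much libraries of a group varied, which may be technical. The 6 libraries held between 16909139 and 23544893 reads counted on genes.

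Mouse ES cells are derived from the inner cell mass of the blastocyst and keep their identity through a network of transcription factors that includes Pou5f1, Sox2 and Nanog, with LIF acting through Stat3. Sublines of a single parental line can drift in culture, where they may gain or lose parts of chromosomes and may change the methylation of imprinted genes, which are expressed from the allele of only the mother or only the father. ERt2-Cre is a recombinase fused to a mutant ligand-binding domain of the estrogen receptor, and 4OHT is the ligand that lets it enter the nucleus. Levels are given as CPM, each gene's reads per library size on a common scale, in the order of replicates 1, 2 and 3. Changes are log2 fold changes of the 4OHT control over the ethanol control with their standard errors (SE). A gene was called higher or lower where edgeR's quasi-likelihood test gave an adjusted p below 0.05, and "rose" and "fell" refer to such calls.

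Zbtb11 (ENSMUSG00000022601.9), the zinc finger gene floxed in the ethanol control, stood at 348, 359 and 359.8 CPM in the ethanol control and 364, 378 and 361 CPM in the 4OHT control. The log2 fold change was 0.05 (SE 0.05, adjusted p = 0.51), and the gene was not called. The lowest 4OHT control library (361 CPM) lay just above the highest ethanol control library (359.8 CPM). How many genes show such a gap was not counted. A gene count does not show whether an exon is flanked by loxP sites, so these values do not test the floxed label. Esr1, a mouse estrogen receptor gene, had 70, 77 and 67 reads in the ethanol control (3.19, 3.37 and 4.00 CPM). It had 3, 3 and 0 reads in the 4OHT control (0.142, 0.176 and 0.00 CPM). Its fitted log2 fold change was -5.02 (SE 0.38, adjusted p = 3.2e-07). In the labelled KO libraries, which carry the same ERt2-Cre gene, Esr1 ranged from 3.16 to 3.61 CPM. Esr1 was thus near 0 in the libraries without the transgene and present in all libraries labelled with it. Whether reads of the transgene were counted on Esr1 was not tested.

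Markers of ES cells were present in all 6 libraries. Pou5f1 measured 748, 752 and 766 CPM in the ethanol control and 829, 817 and 786 CPM in the 4OHT control. Its log2 fold change of 0.10 (SE 0.05, adjusted p = 0.21) passed the test only with the replicate number as a block (adjusted p = 0.032). Sox2, its partner factor, differed by -0.03 (SE 0.06, adjusted p = 0.80). The summed level of 32 pluripotency genes ranged from 8496.5 to 8845.1 CPM in the ethanol control and from 9077.4 to 9989.1 CPM in the 4OHT control. Of the lists of markers of other cells that follow, only primitive endoderm had summed levels that did not overlap between the arms. The 16 fibroblast genes, which would mark feeder cells, summed to 72.4 to 84.8 CPM in the ethanol control and 62.6 to 74.7 CPM in the 4OHT control. Of the 10 tested 3 rose and 3 fell. Genes of mesoderm summed to 21.2 to 24.8 CPM and 18.7 to 26.8 CPM, and those of the neural lineage to 468 to 518 CPM and 475 to 546 CPM. Trophoblast genes summed to 251 to 291 CPM and 208 to 263 CPM. Primitive endoderm genes summed to 1559.3 to 1668.4 CPM and 1353.6 to 1380.0 CPM. Of these lists only the neural list had a member, Dbx1, without a read in all 6 libraries.

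Of 14969 autosomal genes tested, 2805 differed between the control arms (18.7%). The 4OHT control was higher for 1458 of them (9.74%) and lower for 1347 (9.0%). Libraries that share a replicate number deviated together, with correlations of 0.11 to 0.25, though the labels do not state what the number stands for. The fit behind the calls in this text leaves the number out unless stated. Fitted with the replicate number as a block, 5007 genes were called, 2570 higher and 2437 lower. Most differences were small: 169 called genes were at least 2-fold higher and 146 at least 2-fold lower, and the median size of the log2 fold change over all autosomal genes was 0.16. The counts were lowest without ethanol control replicate 2, where 1869 genes were called, 948 higher and 921 lower. The shares of list or region members below, given as counts or percentages, can be read against 9.74% called higher and 9.0% called lower. Those values hold for the main fit only. List counts with the replicate block are to be read against the 2570 higher and 2437 lower of that fit. Fits that left out a library called 948 to 1221 genes higher and 921 to 1155 lower. Without distal chromosome 6 and chromosome 8, described below, the shares were 8.09% higher and 8.22% lower.

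Among autosomal genes whose mean log2 CPM was 2 or more, the largest rises included genes of the cytoskeleton, transcription and development. Myh9 (ENSMUSG00000022443.10), the heavy chain of non-muscle myosin IIA, had 74.6, 61.7 and 56.2 CPM in the ethanol control and 269, 208 and 227 CPM in the 4OHT control, a log2 fold change of 1.87 (SE 0.14, adjusted p = 3.2e-05). Its level in the labelled KO libraries was 75.1 to 99.1 CPM. Every 4OHT control library lay well above all of the libraries of the floxed line. Gpa33, a cell surface antigen known from the intestine, rose from 17.2, 15.3 and 15.4 CPM to 49.4, 54.2 and 52.1 CPM (log2 fold change 1.70). Sall3, a zinc finger factor related to Sall4, rose from 12.2, 12.9 and 13.7 CPM to 35.2, 49.1 and 43.2 CPM (1.72). Capn3, a calpain protease of muscle, rose from 9.24, 6.78 and 8.07 CPM to 23.7, 28.2 and 23.01 CPM (1.64). The groups overlapped for none of these genes, but the genes were picked as the largest called rises. The lack of overlap is thus no separate result, and its share over all genes was not counted. Other members of the 12 largest rises were Ccdc141 (1.71), Dusp27 (1.69), Pou4f2 (1.61), Rpl39l (1.56), Gtsf1l (1.53), Zfp869 (1.5) and Irak3 (1.47).

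The largest falls included genes of innate immunity. Zbp1, a sensor of Z-form nucleic acids that is induced by interferon, fell from 15.1, 12.4 and 14.8 CPM to 3.79, 4.11 and 4.13 CPM (log2 fold change -1.81, SE 0.18, adjusted p = 6.3e-06). Irgm2, an interferon-inducible GTPase, fell from 7.46, 6.73 and 7.41 CPM to 2.85, 2.76 and 2.59 CPM (-1.39). Irak2, a kinase of the interleukin-1 and Toll-like receptor pathways, fell from 20.5, 15.5 and 19.2 CPM to 8.11, 6.23 and 7.40 CPM (-1.34), whereas Irak3, a family member that dampens this signalling, was among the largest rises. Piwil4, an Argonaute family protein of the piRNA pathway, fell from 21.9, 24.2 and 24.1 CPM to 8.21, 8.58 and 8.89 CPM (-1.45, SE 0.10, adjusted p = 9.1e-08). In the labelled KO libraries Piwil4 was 23.1 to 28.3 CPM and Zbp1 8.56 to 13.8 CPM. The other falls were Plac8 (-1.58), Mfap5 (-1.50), Dppa3 (-1.48), Dll1 (-1.48), Ptpn7 (-1.45), Apobec1 (-1.41), Bcl2l14 (-1.37) and Fat2 (-1.36). Of the 12 genes that fell most, Mfap5, Dppa3, Apobec1, Bcl2l14 and Irak2 lie on distal chromosome 6, which is described next. The Dll1 call was lost without 4OHT control replicate 1 (-1.30, adjusted p = 0.0862), replicate 2 (adjusted p = 0.0804) or replicate 3 (adjusted p = 0.0588), and without ethanol control replicate 2 (adjusted p = 0.0619).

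**Figure D1:**
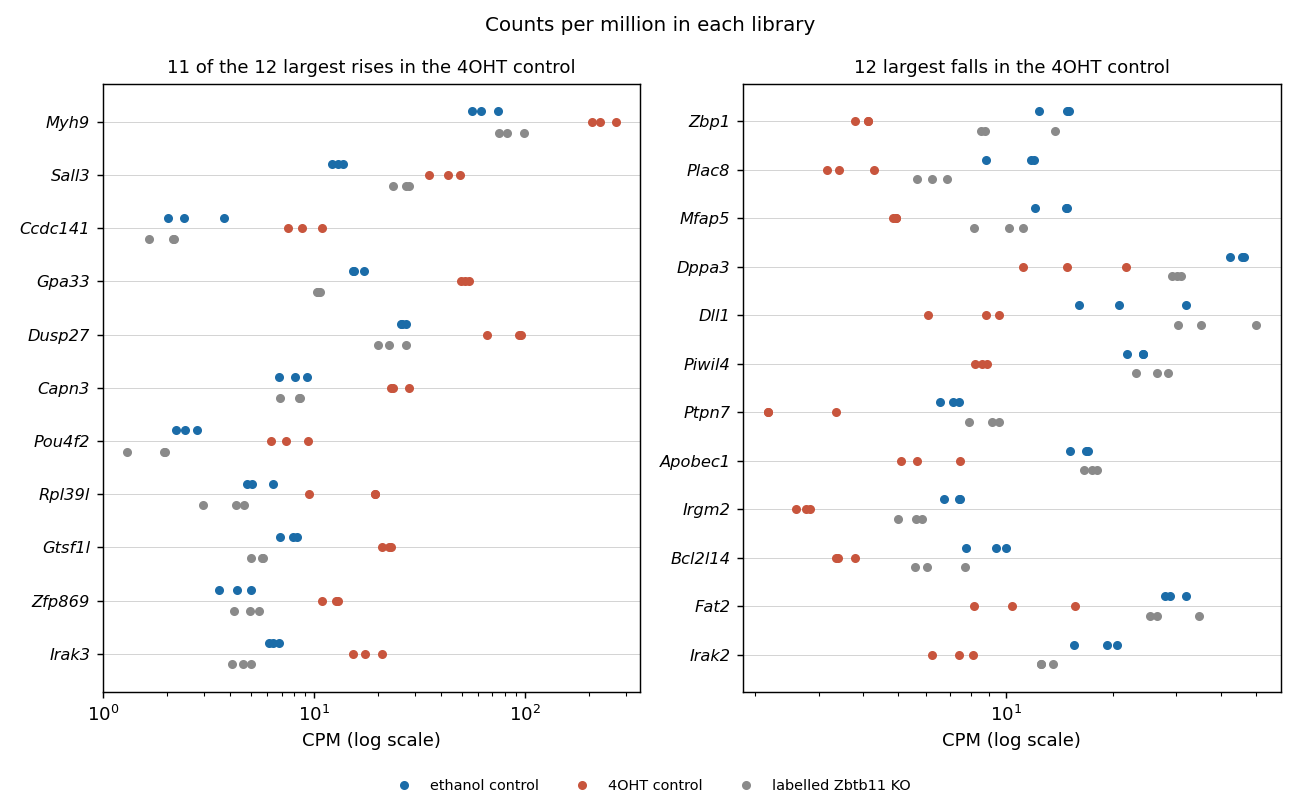
CPM on a log scale in each library (points) for 11 of the 12 genes with the largest rises (left) and the 12 with the largest falls (right), with the ethanol control in blue, the 4OHT control in red and the labelled KO libraries in grey. Myh9, at the top left, lies at 208 to 269 CPM in the 4OHT control and 56.2 to 74.6 CPM in the ethanol control.

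A long stretch of chromosome 6 was lower in the 4OHT control. Ordered by position, the 293 tested genes from Pdzrn3 to the end of the chromosome had a median log2 fold change of -0.57, which is 0.672 of the ethanol control level. Of these genes 194 fell, 3 rose, and 93.9% had a value below 0. The lower and upper quartiles were -0.75 and -0.40. The 444 tested genes before that point had a median of -0.01, with 30 higher and 41 lower. The point, between Ppp4r2 (0.20) and Pdzrn3 (-0.59), was computed after the running medians had been seen. It was the split in gene order that most separated the fold changes of the parts, with large changes capped. The stretch is therefore described without a test. Within it, the medians of 5 windows of 50 genes lay between -0.60 and -0.57.

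The shift was seen in each library of the 4OHT control and in none of the floxed line. Relative to the mean of the ethanol control, the medians over distal chromosome 6 were -0.57, -0.59 and -0.55 in the 4OHT control libraries. They were between -0.01 and 0.01 in the ethanol control libraries and between -0.03 and 0.02 in the labelled KO libraries, which received the same drug as the 4OHT control. DNA copy number was not measured in these libraries, so a different number of copies and a lower output per copy cannot be told apart.

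Distal chromosome 6 includes the Rosa26 locus, the insertion site of ERt2-Cre in the floxed line. Thumpd3, which overlaps Gt(ROSA)26Sor on the opposite strand, fell from 114, 124 and 120.1 CPM to 69.6, 75.6 and 67.8 CPM (log2 fold change -0.75, SE 0.06, adjusted p = 7.6e-07). Transcripts of Rosa26 itself had 3.32, 2.80 and 2.27 CPM in the ethanol control and 3.18, 2.12 and 2.59 CPM in the 4OHT control, and were not called (-0.09, SE 0.19, adjusted p = 0.80). They stood at 4.78 to 5.40 CPM in the labelled KO libraries. Several neighbours fell on both sides of the locus, among them Edem1 (-0.61), Rad18 (-0.46), Setd5 (-0.44) and Mtmr14 (-0.53). Lhfpl4, which lies between Setd5 and Mtmr14, rose by 0.95, and Lmcd1 (-0.08) and Gm16161 (-0.40) were not called.

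Many well known genes of ES cells lie on this stretch. Dppa3, a maternal factor that protects the zygote from demethylation, fell from 46.4, 42.3 and 45.7 CPM to 21.7, 11.2 and 14.8 CPM (-1.48, SE 0.18, adjusted p = 0.00052). Its neighbours in the same cluster were Gdf3, a TGF-beta family ligand, which fell by 0.38, and Nanog. Nanog had 632, 538 and 564 CPM in the ethanol control and 544, 379.6 and 441 CPM in the 4OHT control. These ranges overlapped, and the log2 fold change of -0.35 (SE 0.15, adjusted p = 0.16) passed the test only with the replicate block (adjusted p = 6.6e-08) or without 4OHT control replicate 1 (-0.50, adjusted p = 0.022). Phc1, a subunit of Polycomb repressive complex 1, fell from 1065, 1129 and 1210 CPM to 741, 739 and 749 CPM (-0.61), and Aebp2, a cofactor of Polycomb repressive complex 2, fell by 0.55. Lrp6, a Wnt co-receptor, fell by 0.68.

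Genes of metabolism, ribosomes and mitosis were among those of the stretch that fell. Gapdh, a glycolytic enzyme often used for normalization, fell from 2088, 2143 and 2325 CPM to 1574, 1629 and 1779 CPM (-0.40, SE 0.06, adjusted p = 0.00014). Ldhb, a lactate dehydrogenase subunit, fell from 244, 214 and 237 CPM to 130.1, 99.7 and 117 CPM (-1.0). Rpl32, of the large cytosolic ribosomal subunit, fell from 844, 828 and 843 CPM to 577, 577 and 577 CPM (-0.54). Ncapd2, a condensin subunit, fell by 0.77 and Cdca3, a regulator of mitotic entry, by 0.65. Among the 3 genes that rose against the stretch were Lhfpl4 (0.95) and Arhgdib (0.78).

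**Figure D2:**
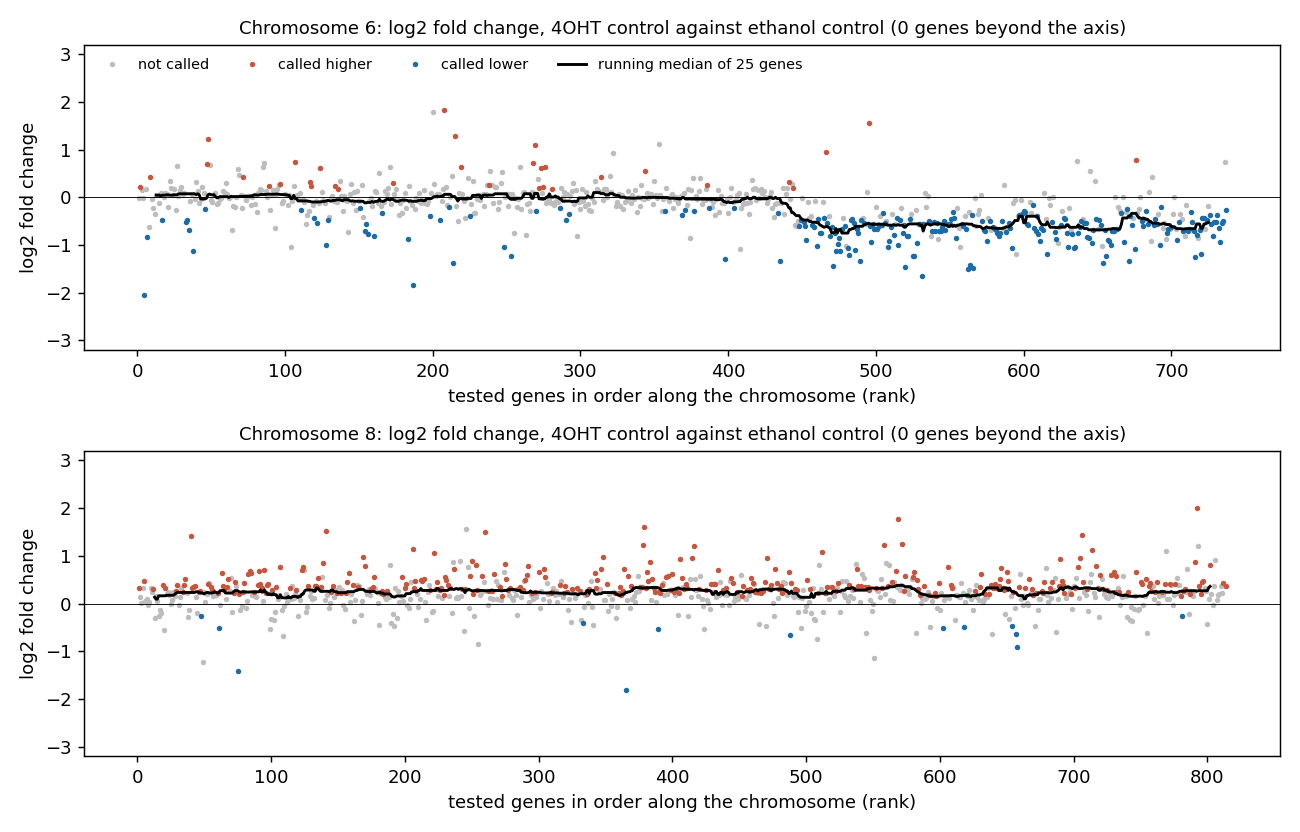
Log2 fold change of each tested gene (points; red called higher, blue called lower, grey not called) against its rank along chromosome 6 (top) and chromosome 8 (bottom), with a running median as a black line. The line drops to about -0.57, the median of the last 293 genes, on the right of chromosome 6 and lies near 0.24 along chromosome 8.

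Chromosome 8 was higher in the 4OHT control over its whole length. The 814 tested genes had a median log2 fold change of 0.24, or 1.18 times the ethanol control level. Of these genes 333 rose and 13 fell, and 84.0% had a value above 0. The medians of 16 windows of 50 genes lay between 0.18 and 0.30. Relative to the ethanol control mean, the medians were 0.26, 0.24 and 0.23 in the 4OHT control libraries, between -0.01 and 0.01 in the ethanol control libraries and between 0.01 and 0.02 in the labelled KO libraries. The other 17 autosomes had medians between -0.02 and 0.03. Chromosome X, which was counted apart from the autosomes, had a median of 0.01 over 569 genes, with 51 higher and 46 lower. Chromosome 8 held 5.44% of the autosomal genes tested and 22.8% of those called higher, and distal chromosome 6 held 1.96% of genes and 14.4% of those called lower. Without both regions 2262 of 13862 genes were called (16.3%), 1122 higher and 1140 lower.

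Single genes of chromosome 8 ranged more widely than the shift of the chromosome. Trim67, a member of the tripartite motif family, rose from 1.32, 0.525 and 1.26 CPM to 3.94, 3.58 and 4.76 CPM (2.01, SE 0.28, adjusted p = 0.0001). Hsf4, a heat shock factor known from the lens, rose by 1.78, and Nwd1 fell by 1.82. Smad1, which carries BMP signals to the nucleus, rose from 20.1, 20.1 and 20.02 CPM to 29.2, 28.8 and 27.6 CPM (0.51). Sfrp1, a secreted Wnt antagonist, rose by 0.76. Rpl13, of the large cytosolic ribosomal subunit, rose from 561, 549 and 589 CPM to 682, 677 and 688 CPM (0.27). The 13 genes that fell were Abcb10, Atp11a, Bst2, Cdh3, Gas6, Gm15894, Hhip, Hydin, Il34, Myom2, Nwd1, Psmb10 and Tox3, which include the interferon-induced genes Bst2 and Psmb10.

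**Figure D3:**
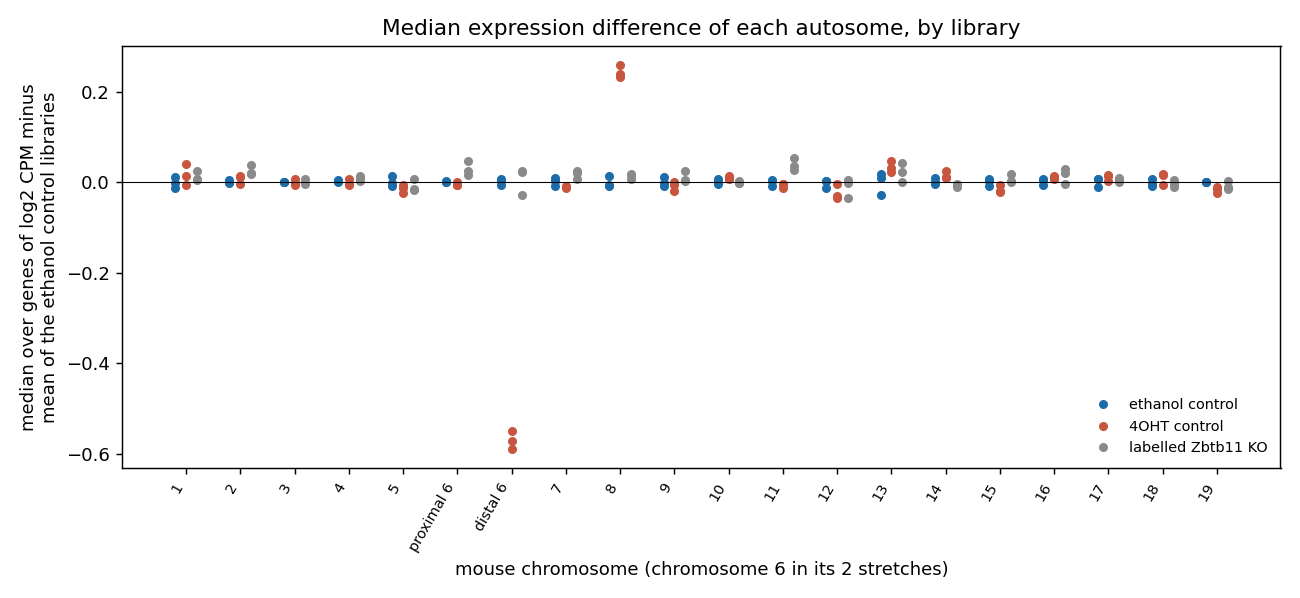
Median over genes of log2 CPM minus the mean of the ethanol control (vertical axis) for each autosome (horizontal axis, chromosome 6 in 2 stretches) and each library (points; ethanol control blue, 4OHT control red, labelled KO grey). The 4OHT control libraries leave the band around 0 at distal chromosome 6 (-0.59 to -0.55) and at chromosome 8 (0.23 to 0.26).

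Apart from these regions, 270 windows of 50 consecutive genes had medians whose 5th and 95th percentiles were -0.08 and 0.07. A few windows stood further out and are described without a test, since they were chosen by their values. On distal chromosome 4, the window from Gm13170 to Angptl7 had a median of 0.38, with 19 higher and 1 lower. It holds a cluster of zinc finger genes with closely related copies. Zfp978 rose from 32.0, 39.9 and 31.0 CPM to 76.6, 90.4 and 78.9 CPM (1.25, SE 0.10, adjusted p = 2.3e-06). Zfp600 (1.22), Zfp981 (0.92) and Zfp980 (0.87), named after their values were seen, also rose. Reads of near-identical copies may have been split or lost in the counting, so single members of this cluster are uncertain. On chromosome 12 the window from Rbm25 to Vash1 had a median of -0.27, with 2 higher and 18 lower, and on chromosome 11 that from Glod4 to Aldoc had a median of -0.21, with 0 higher and 19 lower. The window from Mir540 to Hsp90aa1 on chromosome 12, with a median of -0.47, had 0 higher and 4 lower of 50 genes and covers imprinted genes that are taken up below.

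To describe pathways, 40 lists were drawn up that together name 1362 genes, of which 1222 were tested. Distal chromosome 6 held 26 of the 170 list members that fell, and chromosome 8 held 22 of the 139 that rose, so counts are also given without both regions where that moves them by more than 1.5 times. The median over all autosomal genes was 0.003. The lists with the lowest medians and 10 or more members called lower were actin and its regulators (-0.28), interferon response (-0.25) and the integrated stress response (-0.16). The highest medians with calls were those of the two-cell-like state (0.57, with 4 of 14 tested genes called), formative epiblast (0.21) and maternally expressed imprinted genes (0.16).

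**Figure D4:**
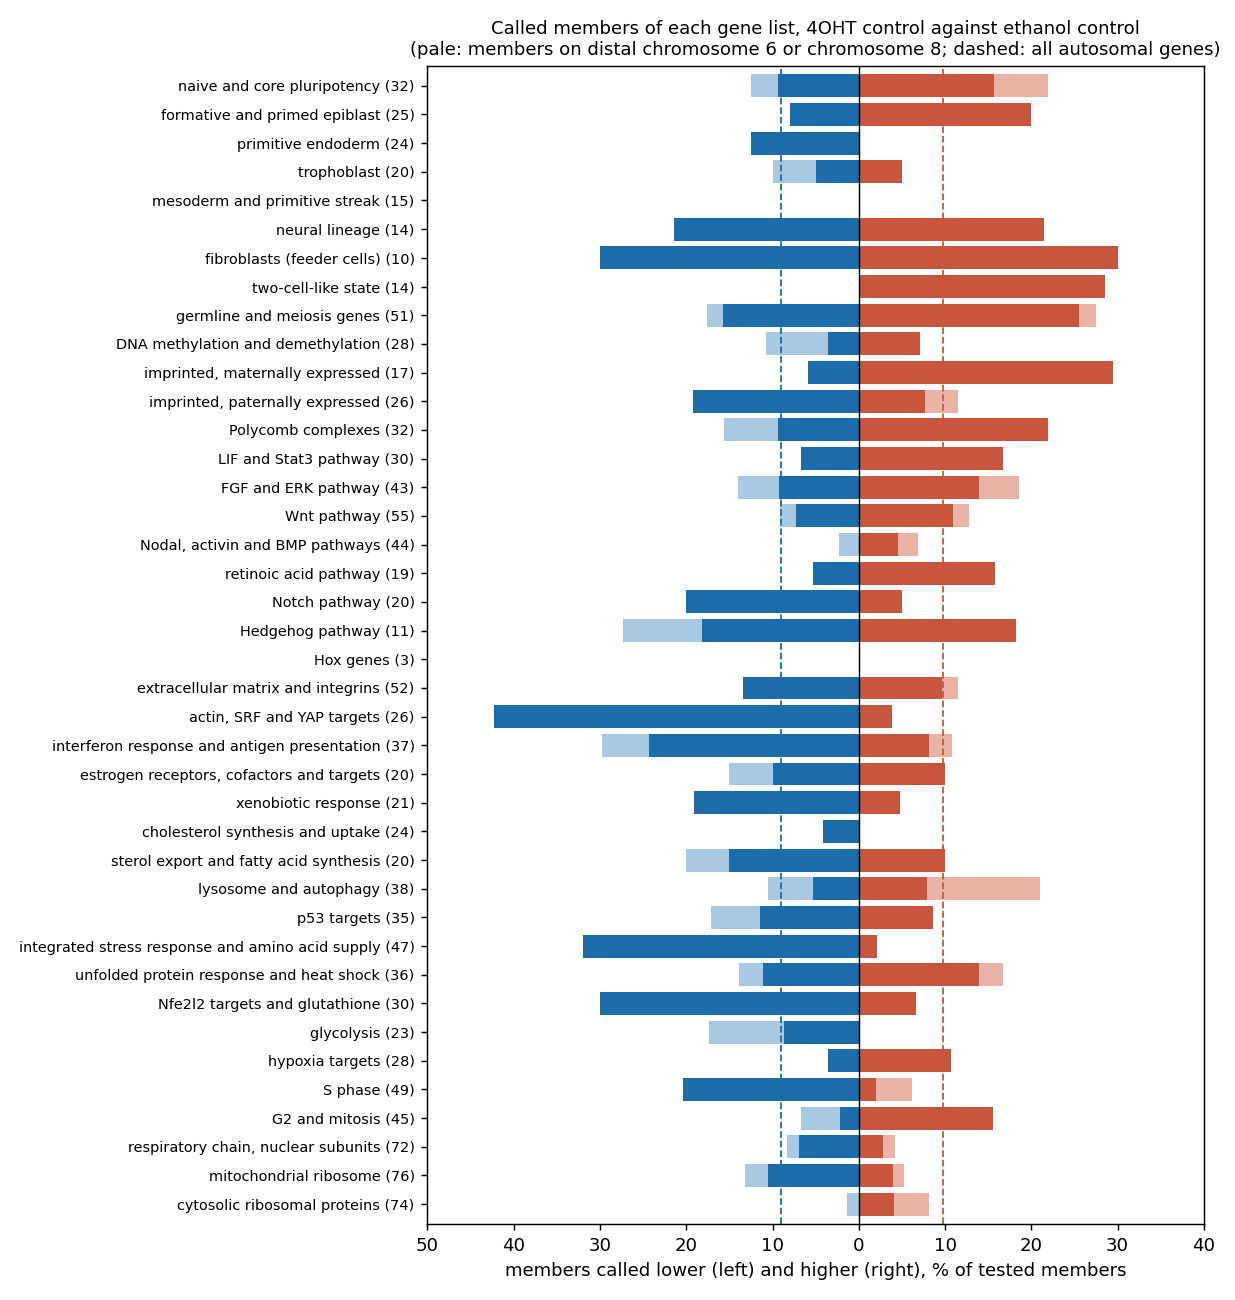
Percentage of the tested members of each list called lower (bars to the left) and higher (bars to the right) in the 4OHT control, with members on distal chromosome 6 or chromosome 8 in pale and the values over all autosomal genes dashed. The bar of the actin list reaches 42.3% to the left, against 9.0% of all autosomal genes.

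Imprinted genes held the largest rise of any list member. H19 (ENSMUSG00000000031.9), a maternally expressed non-coding RNA, had 0.728, 0.962 and 0.837 CPM in the ethanol control and 12.4, 9.40 and 10.6 CPM in the 4OHT control (log2 fold change 3.67, SE 0.18, adjusted p = 2.3e-09). Igf2, the growth factor gene that shares a control region with H19 and is expressed from the paternal allele, fell from 9.97, 11.8 and 10.1 CPM to 6.69, 4.23 and 4.71 CPM (-1.02, SE 0.16, adjusted p = 0.00028). The neighbouring genes thus moved in opposite directions. Cdkn1c, a growth-restraining inhibitor of cyclin-dependent kinases in an adjacent imprinted domain, rose from 9.97, 11.2 and 12.6 CPM to 20.8, 28.5 and 26.7 CPM (1.17). Phlda2 in that domain rose by 0.90. Grb10, an adaptor that restrains insulin signalling, rose from 52.1, 62.8 and 58.0 CPM to 126, 119 and 143 CPM (1.17, SE 0.08, adjusted p = 2.2e-07). None of the 4OHT control libraries overlapped the ethanol control for these genes. The genes were picked among called members, so this lack of overlap is no separate result. In the labelled KO libraries H19 was 0.780 to 0.849 CPM, Igf2 11.6 to 14.8 CPM and Grb10 57.8 to 65.3 CPM.

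Of 17 maternally expressed imprinted genes tested, 5 rose and 1 fell, with Ppp1r9a (0.43) the remaining rise. The fall was that of Meg3, a non-coding RNA of the Dlk1-Dio3 domain on chromosome 12, from 298, 290.2 and 305 CPM to 205, 254 and 229 CPM (-0.38, SE 0.07, adjusted p = 0.00099). Rtl1, the paternally expressed retrotransposon-derived gene of the same domain, fell from 79.6, 83.9 and 103 CPM to 54.5, 61.8 and 53.3 CPM (-0.65). Genes for microRNAs of the domain had reads too, and Mir382 (-0.93, adjusted p = 0.015) was among those called. That call was lost without 4OHT control replicate 2 (-0.76, adjusted p = 0.0642) or ethanol control replicate 3 (-0.79, adjusted p = 0.0636). Of 26 paternally expressed genes, 3 rose and 5 fell, or 5 and 8 with the replicate block. Sfmbt2, a Polycomb-related gene needed in the placenta, fell from 186, 181 and 156 CPM to 107, 84.6 and 100.3 CPM (-0.84). Sgce (-0.83) and Nnat (-0.57) fell with Igf2 and Rtl1. The rises were Gnas (0.53), Gab1 (0.23, on chromosome 8) and Slc38a4 (0.21). Gnas gives maternal, paternal and biallelic transcripts that a count per gene does not separate, and reads were not assigned to alleles.

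**Figure D5:**
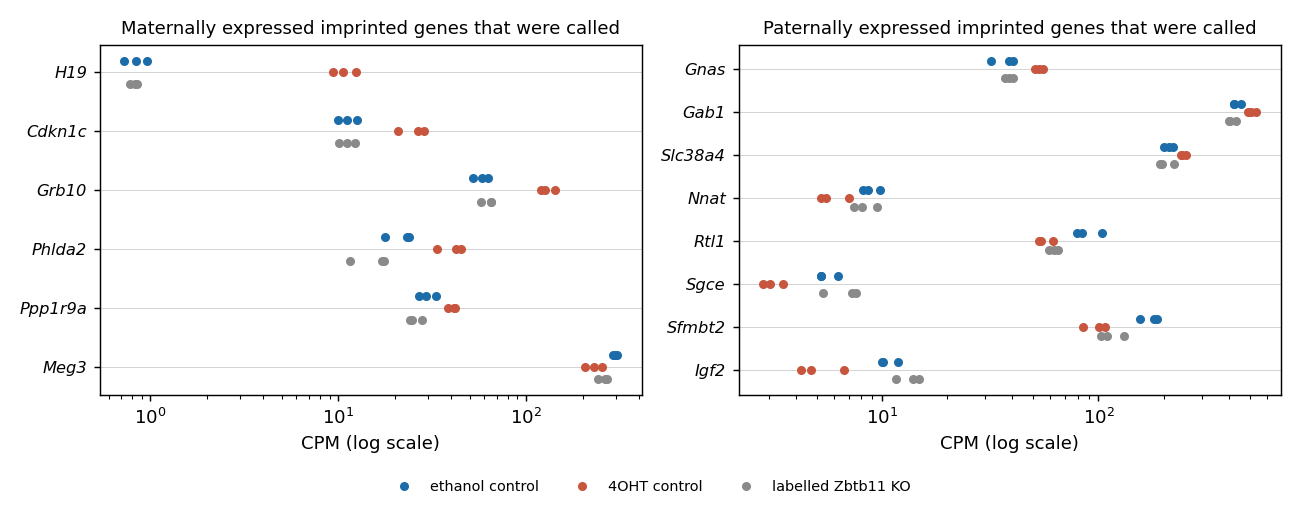
CPM on a log scale in each library (points) for the maternally (left) and paternally (right) expressed imprinted genes that were called, with the ethanol control in blue, the 4OHT control in red and the labelled KO libraries in grey. H19 lies at 9.40 to 12.4 CPM in the 4OHT control and below 1 CPM in the 6 other libraries.

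On the list of genes of the actin cytoskeleton and of its transcription factors Srf and Yap1, more fell than rose. Of 26 members tested 11 fell (42.3%, against 9.0% of autosomal genes), 1 rose and 14 were not called, with a median of -0.28. Acta2, smooth muscle actin, fell from 8.15, 11.5 and 13.2 CPM to 1.28, 0.823 and 1.39 CPM (-3.19, SE 0.33, adjusted p = 0.0001), while the labelled KO libraries had 7.003 to 13.4 CPM. Myl9, a regulatory light chain of myosin, fell from 10.2, 11.9 and 12.01 CPM to 4.84, 4.52 and 5.91 CPM (-1.15). Tpm1, a tropomyosin, fell from 99.3, 109.9 and 104 CPM to 75.7, 71.0 and 72.6 CPM (-0.51). Cnn2 (-0.70), Tagln (-0.78), Anxa2 (-0.46), Lmna (-0.39), S100a11 (-0.39), Vcl (-0.30), Actn1 (-0.27) and Actb (-0.20) made up the rest. Actg1, cytoplasmic gamma actin, was the member that rose, from 953, 908 and 924 CPM to 1276, 1170 and 1119 CPM (0.36, SE 0.06, adjusted p = 0.00033). Without 4OHT control replicate 3 the number that rose was 2. The list did not hold Myh9, the non-muscle myosin heavy chain described above among the largest rises. The counts thus cover the listed genes and not all genes of actin and myosin. No called member of the list lay on distal chromosome 6 or chromosome 8. These genes are also expressed by fibroblasts, of whose markers 3 of the 10 tested rose and 3 fell, as given above. Among those markers Col1a1 (-0.75) and Col1a2 (-2.05) fell while Col6a3 (2.14) rose. In bulk RNA a smaller number of cells of a type and less RNA per cell cannot be told apart.

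Srf binds CArG boxes, and the promoters of a member that fell and of the member that rose are shown because both hold one. Of 24 members with a promoter in the RefSeq table, 6 (25%) had a CArG box in the 250 bases before the start on either strand, against 1.64% of 26794 genes. They were Myl9, Cnn2 and Vcl, which fell, Actg1, which rose, and Srf and Acta1, which were not called. The list was drawn up to include targets of Srf, so a share above that of all genes is no result of these data. The excerpts are from GRCm38.p6, chr2:156775273-156775342 on the plus strand for Myl9 and chr11:120348546-120348615 on the minus strand for Actg1, with the box in capitals.
Myl9: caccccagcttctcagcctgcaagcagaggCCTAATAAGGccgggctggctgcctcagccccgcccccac
Actg1: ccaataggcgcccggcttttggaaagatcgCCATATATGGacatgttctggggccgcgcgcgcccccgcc
The box thus occurred beside starts of genes called in either direction.

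Of 52 extracellular matrix and integrin genes 6 rose (11.5%) and 7 fell (13.5%), close to the 9.74% and 9.0% of all autosomal genes. The counts were 14 and 14 with the replicate block, which called 2570 of all 14969 autosomal genes higher and 2437 lower. Without 4OHT control replicate 1, 12 fell, in a fit that called 1155 autosomal genes lower. Lama1, a laminin chain of the first basement membranes, fell from 243, 258 and 245 CPM to 114, 120.0 and 130.3 CPM (-1.03, SE 0.07, adjusted p = 1.5e-07), and its partner Lamb1 fell by 0.41. Timp3, an inhibitor of matrix proteases, fell from 17.6, 18.8 and 14.9 CPM to 11.1, 8.93 and 7.35 CPM (-0.91). Spp1, osteopontin, rose from 79.7, 78.4 and 79.1 CPM to 203, 195 and 218 CPM (1.38, SE 0.06, adjusted p = 9e-10). Agrn, the proteoglycan agrin, rose by 0.59.

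In the list of interferon response and antigen presentation more members fell than rose. Of 37 members tested 11 fell (29.7%), 4 rose and 22 were not called, with a median of -0.25. Without distal chromosome 6 and chromosome 8 the counts were 9 and 3. Of the factors that carry the interferon signal, Stat2 fell from 26.5, 32.3 and 30.5 CPM to 22.3, 20.03 and 22.6 CPM (-0.46), Irf9 by 0.51, Irf1 by 0.41 and the receptor gene Ifnar1 by 0.31. Among induced genes, Ifi35 fell from 9.69, 9.45 and 10.9 CPM to 5.31, 4.76 and 4.66 CPM (-1.02, SE 0.12, adjusted p = 1.8e-05). Bst2, which tethers budding virus, fell from 33.7, 34.0 and 34.0 CPM to 26.9, 23.4 and 25.9 CPM (-0.41) although it lies on chromosome 8. Oasl2, Psmb10, Ifitm3, Tapbp and Ifitm2 completed the falls, from -0.97 to -0.16. In the other direction H2-D1 rose from 9.47, 9.84 and 11.2 CPM to 17.5, 18.04 and 18.5 CPM (0.83, SE 0.09, adjusted p = 1.5e-05), and H2-K1 rose by 0.94. Nlrc5, an activator of MHC class I transcription on chromosome 8, rose from 1.23, 1.09 and 1.37 CPM to 2.80, 1.70 and 3.12 CPM (1.07). Oas1a rose from 6.87, 7.17 and 7.71 CPM to 13.3, 10.8 and 12.8 CPM (0.77). H2 and Oas1 genes have near-identical copies, so their values are uncertain.

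Genes induced by interferon often hold an interferon-stimulated response element. The letters GAAA and, after any 2 bases, GAAA again were found on either strand in the 250 bases before the start of 8 of 30 members with a RefSeq promoter (26.7%), against 3.49% of all genes. The members with a match that fell were Bst2, Stat2 and Ifitm2, Oas1a rose, and the other 4 were not called. Since the list was made of interferon response genes, its higher share is no result of these data. The promoters of Oas1a (GRCm38.p6 chr5:120907526-120907575, minus strand) and Bst2 (chr8:71537557-71537632, minus strand) are shown since they carry overlapping matches, in capitals, yet moved in opposite directions.
Oas1a: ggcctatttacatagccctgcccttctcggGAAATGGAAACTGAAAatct
Bst2: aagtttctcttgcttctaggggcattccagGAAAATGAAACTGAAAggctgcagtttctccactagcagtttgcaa

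Among genes of the integrated stress response and amino acid supply, more fell than rose. This program is run by Atf4, which raises amino acid synthesis, transport and tRNA charging when translation initiation is curbed. Of 47 members tested 15 fell (31.9%), 1 rose and 31 were not called, with a median of -0.16. The number that fell was 24 without 4OHT control replicate 3 and 26 with the replicate block. Atf4 itself fell from 181, 189 and 191 CPM to 148, 137 and 160.3 CPM (-0.33, SE 0.06, adjusted p = 0.0017). Aminoacyl-tRNA synthetases made up 7 of the 15, from Sars (-0.49) and Cars (-0.35) to Iars (-0.20), and Lars fell from 354, 379.6 and 383 CPM to 297, 274 and 309 CPM (-0.34). Enzymes of amino acid synthesis that fell were Phgdh (-0.57), Psat1 (-0.45) and Psph (-0.45), the 3 steps of serine synthesis, with Cbs (-0.52) and Asns (-0.47). Asns, which makes asparagine, had 388, 353 and 360.1 CPM in the ethanol control and 294, 246 and 255 CPM in the 4OHT control. The transporter Slc1a5 fell by 0.35 and Slc38a2, a transporter of neutral amino acids, rose by 0.27. The labelled KO libraries, which share the drug with the 4OHT control and the line with the ethanol control, had 282 to 307 CPM for Lars, 291 to 348 CPM for Asns and 162 to 183 CPM for Atf4.

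A CARE-type sequence, TGATGNAA, which Atf4 binds with its partners, was searched in the same way. It was found in 11 of 37 members with a RefSeq promoter (29.7%) and in 3.78% of all genes. As the list names genes of the program run by Atf4, that contrast is no result of these data. Asns was the 1 member with a match among the 10 that fell and had a promoter, and its excerpt (GRCm38.p6 chr6:7693210-7693262, minus strand) is given with the match in capitals.
Asns: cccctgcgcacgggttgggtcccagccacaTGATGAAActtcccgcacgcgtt
The other 10 matches were in members that were not called.

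Targets of Nfe2l2, the factor of the oxidative stress response, included 9 that fell and 2 that rose of 30, and 5 fell without ethanol control replicate 3. Nfe2l2 itself fell from 69.4, 68.5 and 69.5 CPM to 58.7, 55.5 and 61.3 CPM (-0.24, SE 0.05, adjusted p = 0.0053). Gss, which makes glutathione, fell from 32.0, 30.3 and 28.3 CPM to 19.8, 18.4 and 18.1 CPM (-0.69). The transferase Gstp1 (-0.40) and the ferritin heavy chain Fth1 (-0.31) also fell. Gpx4, which reduces lipid peroxides, rose from 225, 209.7 and 252 CPM to 309.9, 282 and 327 CPM (0.42). In the list of the unfolded protein response and heat shock 6 of 36 rose and 5 fell, or 12 and 8 with the replicate block, and 3 rose without 4OHT control replicate 2. Rises were among cytosolic chaperones, such as the inducible Hspa1b (0.92), whose near-identical copy Hspa1a (0.79) makes both uncertain. The constitutive Hspa8 fell by 0.25. The members that fell in the endoplasmic reticulum, 4 of 22, included Pdia4 (-0.34) and Edem1 (-0.61, on distal chromosome 6).

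Naive and core pluripotency genes included 7 that rose and 4 that fell of 32, with a median of 0.08. These counts were 15 and 7 with the replicate block, and 4 rose without ethanol control replicate 2. Mybl2, a Myb family factor of the cell cycle, rose from 266, 265 and 275 CPM to 621, 572 and 562 CPM (1.12, SE 0.05, adjusted p = 7.9e-10). Jam2, a junctional adhesion molecule, rose from 121, 119.9 and 123 CPM to 245, 224 and 249 CPM (0.98). Nr5a2, a nuclear receptor that acts on Pou5f1, fell from 117, 114 and 99.7 CPM to 84.8, 79.4 and 78.3 CPM (-0.45). Core factors were not called apart from Utf1, which fell, and Esrrb (0.03, adjusted p = 0.84) and Stat3 (-0.04, adjusted p = 0.60) were not called.

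Factors of later and extraembryonic lineages varied by gene. In the formative and primed epiblast list 5 of 25 rose and 2 fell, but only 1 rose without ethanol control replicate 2 and 8 rose with the replicate block. Tcf15, a factor of the formative state, rose from 25.03, 23.5 and 21.1 CPM to 44.4, 45.5 and 35.9 CPM (0.85, SE 0.09, adjusted p = 8.9e-06), and Cdh2, N-cadherin, fell by 0.69. Primitive endoderm genes had 0 higher and 3 lower of 24 (6 lower with the replicate block), with a median of -0.18, and summed to 1559.3 to 1668.4 CPM in the ethanol control and 1353.6 to 1380.0 CPM in the 4OHT control. The falls were Lama1, Lamb1 and Dab2, and the 8 factors of this lineage had none. Dab2 (-0.66, adjusted p = 0.014) lost its call without 4OHT control replicate 2 (adjusted p = 0.0599), 4OHT control replicate 3 (adjusted p = 0.0602) or ethanol control replicate 1 (adjusted p = 0.0748). Of 14 neural genes, 3 rose and 3 fell, or 6 fell with the replicate block, and 1 rose without 4OHT control replicate 3, ethanol control replicate 1 or ethanol control replicate 2. Neurod1, a neurogenic factor, fell from 19.8, 27.1 and 27.8 CPM to 10.8, 8.99 and 10.1 CPM (-1.31), Sox21 fell by 0.95 and Stmn2 rose by 0.34. None of 15 mesoderm genes and none of 3 Hox genes tested was called by edgeR; 28 Hox genes of the list were not tested.

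Germline genes were spread to both sides. Of 51 tested 14 rose (27.5%) and 9 fell (17.6%), with a median of 0.15. Gtsf1l, a relative of a piRNA pathway gene, rose from 6.87, 7.92 and 8.31 CPM to 21.0, 22.6 and 23.1 CPM (1.53, SE 0.10, adjusted p = 9.1e-08). Mael, a piRNA factor, rose by 0.83, and the synaptonemal complex gene Syce1 rose from 21.8, 23.6 and 20.9 CPM to 30.1, 32.0 and 30.3 CPM (0.48). Tuba3a, a testis tubulin on distal chromosome 6, fell from 148, 160.4 and 169 CPM to 62.9, 72.5 and 74.2 CPM (-1.19). Tdrd12 (-0.71) and Tex14 (-0.53), both of germ cells, also fell. Genes of the two-cell-like state, a rare state of ES cultures, included 4 higher and 0 lower of 14 (7 higher with the replicate block). Another 10 of the 24 listed genes were not tested. They summed to 35.5 to 37.2 CPM in the ethanol control, 50.5 to 61.9 CPM in the 4OHT control and 50.7 to 57.5 CPM in the labelled KO libraries. Zfp809, a repressor of retroviruses, made up a large part of these sums and rose from 19.07, 19.2 and 18.5 CPM to 28.4, 29.5 and 29.1 CPM (0.61). The other called members, Usp17la, Usp17lb and Usp17le, rose by 1.04, 1.23 and 0.74, but they are near-identical copies and uncertain. Whether the number of two-cell-like cells differed was not tested. The Usp17le call was lost without 4OHT control replicate 1 (adjusted p = 0.0912) or ethanol control replicate 2 (adjusted p = 0.0968).

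Signalling lists had calls in both directions. In the Wnt list 7 of 55 rose (12.7%) and 5 fell (9.09%), close to the 9.74% and 9.0% of all autosomal genes. With the replicate block 16 rose and 11 fell, in a fit that called 2570 of all 14969 autosomal genes higher and 2437 lower. Axin2, a feedback target of beta-catenin, rose from 20.2, 20.4 and 19.96 CPM to 38.9, 43.8 and 32.5 CPM (0.92, SE 0.10, adjusted p = 6.3e-06), and the secreted antagonists Notum and Sfrp1 rose by 0.68 and 0.76. Receptors differed: Ror2 rose by 0.91, whereas Ror1 fell from 8.37, 8.31 and 9.32 CPM to 3.94, 2.70 and 4.18 CPM (-1.25). Wnt5a, a ligand of the Ror receptors, fell from 4.01, 5.03 and 7.29 CPM to 2.37, 2.12 and 2.21 CPM (-1.26). In the FGF and ERK list 8 of 43 rose and 6 fell, or 13 fell with the replicate block. Ligands Fgf1 and Fgf17 rose by 0.90 and 0.60, and Etv5, a target of ERK, rose from 280.4, 287 and 266 CPM to 488, 447 and 456 CPM (0.74, SE 0.05, adjusted p = 1.6e-07). Mapk3, an ERK kinase, fell from 95.1, 103 and 112 CPM to 70.9, 78.5 and 80.4 CPM (-0.43).

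In the LIF and Stat3 list 5 of 30 rose and 2 fell, or 8 and 7 with the replicate block, and 4 fell without 4OHT control replicate 1. Cntfr, a receptor of the LIF family of cytokines, rose from 8.83, 9.14 and 8.43 CPM to 20.1, 30.3 and 19.99 CPM (1.40, SE 0.15, adjusted p = 2.6e-05). Socs3, the feedback inhibitor of Stat3 signalling, fell from 199, 239 and 238 CPM to 153, 155 and 155 CPM (-0.55). Pim1, a kinase gene induced by Stat3, fell by 0.32, and Mcl1, a survival factor, rose by 0.45. Of the Notch list 1 of 20 rose and 4 fell, with 9 lower under the replicate block and 2 lower without 4OHT control replicate 2 or without ethanol control replicate 2. The receptor gene Notch4 rose from 31.3, 21.7 and 20.6 CPM to 40.5, 44.8 and 44.3 CPM (0.81), and the coactivator Maml2 fell by 1.05. The ligand Dll4 had 1.00, 1.01 and 1.73 CPM in the ethanol control and 0.427, 0.294 and 0.288 CPM in the 4OHT control (-1.82, SE 0.38, adjusted p = 0.0034). Nodal, activin and BMP genes had few calls, with 3 higher and 1 lower of 44 (8 and 3 with the replicate block), and 3 were lower without 4OHT control replicate 1 and 0 outside distal chromosome 6 and chromosome 8. Of 11 Hedgehog genes 2 rose and 3 fell, with 5 lower under the replicate block. Their falls numbered 0 or 1 without any single library other than 4OHT control replicate 3, and their rises 0 or 1 without any single library other than 4OHT control replicate 1 or ethanol control replicate 3. In the retinoic acid list 3 of 19 rose and 1 fell, or 5 and 2 with the replicate block. The fall, of Crabp1 (-0.40), was lost without 4OHT control replicate 1 (adjusted p = 0.0747), 4OHT control replicate 2 (adjusted p = 0.0804), ethanol control replicate 2 (adjusted p = 0.122) or ethanol control replicate 3 (adjusted p = 0.101). The receptor gene Rarg rose from 176, 161 and 136 CPM to 281, 287 and 232 CPM (0.76), and the target gene Stra8 rose by 0.74.

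Of 32 Polycomb genes, whose complexes place repressive histone marks, 7 rose and 5 fell. The falls dropped to 3 without distal chromosome 6 and chromosome 8, and to 3 without 4OHT control replicate 2, 4OHT control replicate 3 or ethanol control replicate 2. Bmi1, of Polycomb repressive complex 1, rose from 5.51, 4.72 and 5.50 CPM to 8.68, 7.81 and 8.22 CPM (0.66), Rnf2, the catalytic subunit, rose by 0.28, and Rybp, which lies just before the lower stretch of chromosome 6, rose by 0.32. Of 28 genes of DNA methylation and demethylation 2 rose and 3 fell, or 9 and 6 with the replicate block. A single gene rose without 4OHT control replicate 2, 4OHT control replicate 3 or ethanol control replicate 2, and 1 fell outside distal chromosome 6. Mbd4, a thymine glycosylase, fell from 45.9, 48.8 and 42.9 CPM to 24.9, 21.9 and 25.6 CPM (-0.93), and Apobec1, a cytidine deaminase, fell by 1.41, both on distal chromosome 6. Dnmt3l (-0.08, adjusted p = 0.72) and Tet1 (-0.05, adjusted p = 0.66) were not called. Tet2 (0.23, adjusted p = 0.34) was not called, though it passed with the replicate block (adjusted p = 9.6e-06). Dnmt3b (0.21, adjusted p = 0.073) was not called either, but it passed with the replicate block (adjusted p = 0.00034), with no filter on low counts (0.20, adjusted p = 0.00908) and without 4OHT control replicate 1 (0.27, adjusted p = 0.0178).

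The estrogen receptor list and the list of drug metabolism bear on 4OHT, a ligand of estrogen receptors. Of 20 estrogen receptor genes, cofactors and targets 2 rose and 3 fell. The falls were Esr1, Cxcl12 (-1.46, on distal chromosome 6) and Myb, which went from 14.1, 15.7 and 19.8 CPM to 8.25, 9.64 and 11.8 CPM (-0.73). The rises, Nrip1 (0.43) and Igfbp4 (0.38), numbered 0 without ethanol control replicate 2, 1 without any other single library except 4OHT control replicate 2, and 5 with the replicate block. Of 21 xenobiotic response genes 1 rose and 4 fell. The rise was Cyp1a2 (1.55), below 1 CPM in all 6 libraries, and it was lost without ethanol control replicate 1 (1.17, adjusted p = 0.053). DESeq2 and the filter at 1 CPM gave it no adjusted p. Cyp1b1, a cytochrome P450 that metabolizes estrogens, fell from 2.91, 3.41 and 3.05 CPM to 0.711, 0.470 and 0.961 CPM (-2.10, SE 0.25, adjusted p = 2.3e-05), against 2.14 to 2.86 CPM in the labelled KO libraries. Abcb1b, a drug efflux pump, fell from 39.5, 34.4 and 32.0 CPM to 29.5, 23.4 and 23.1 CPM (-0.48), against 52.9 to 59.0 CPM in the labelled KO libraries. The count of falls was 2 without ethanol control replicate 2 or without ethanol control replicate 3.

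Of 74 cytosolic ribosomal protein genes 6 rose and 1 fell, with 3 and 0 outside distal chromosome 6 and chromosome 8, 3 higher without ethanol control replicate 2 and 19 higher with the replicate block. Of 76 mitochondrial ribosome genes 4 rose and 10 fell. The falls were 18 with the replicate block, 3 without 4OHT control replicate 1 and 5 without ethanol control replicate 2 or without ethanol control replicate 3. The rises were 7 with the replicate block, 0 without 4OHT control replicate 2 or ethanol control replicate 1, 1 without 4OHT control replicate 3 or ethanol control replicate 3, and 2 with ethanol control replicate 2 left out. Mrps17 fell from 56.3, 57.9 and 57.9 CPM to 44.6, 43.3 and 46.2 CPM (-0.36). Of 72 nuclear genes of the respiratory chain 3 rose and 6 fell, or 7 and 13 with the replicate block, and 3 fell without 4OHT control replicate 1 or without ethanol control replicate 2. Ndufb10, of complex I, fell from 43.4, 42.9 and 43.7 CPM to 31.5, 35.6 and 29.5 CPM (-0.43). Glycolysis had 0 higher and 4 lower of 23, of which Ldhb and Gapdh lie on distal chromosome 6, and 2 fell outside that region. With the replicate block 5 rose and 9 fell, 2 fell without 4OHT control replicate 2 and 7 fell without 4OHT control replicate 3.

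Of 49 S phase genes 3 rose and 10 fell, with falls of 18 under the replicate block and of 4 to 6 without 4OHT control replicate 1 (5), 4OHT control replicate 3 (6), ethanol control replicate 2 (4) or ethanol control replicate 3 (4). The rises were 5 with the replicate block and 1 outside distal chromosome 6 and chromosome 8. Rfc4, of the clamp loader, fell from 56.3, 56.9 and 57.3 CPM to 43.0, 43.2 and 42.3 CPM (-0.41, SE 0.05, adjusted p = 7.5e-05), and Ung, a uracil glycosylase, fell by 0.44. Exo1, a repair exonuclease, rose by 0.36. Of 35 p53 target genes 3 rose and 6 fell, with 10 lower under the replicate block or without 4OHT control replicate 1, and 3 lower without ethanol control replicate 3. Trp53 itself was not called (0.01, adjusted p = 0.95). Tigar, a regulator of glycolysis on distal chromosome 6, fell from 87.5, 83.0 and 80.4 CPM to 51.6, 50.2 and 47.0 CPM (-0.75), and Ei24 rose by 0.42. In the lysosome and autophagy list 8 of 38 rose and 4 fell. On chromosome 8 were 5 of the 8 rises, among them Atp6v0d1, a subunit of the proton pump (0.50), and Lamp1, a lysosomal membrane protein (0.27). Only 2 fell without 4OHT control replicate 2 or without ethanol control replicate 1. Outside both regions 3 rose and 2 fell, including Glb1, lysosomal beta-galactosidase, which rose from 39.0, 38.1 and 42.7 CPM to 54.6, 54.0 and 60.6 CPM (0.50). Gabarapl1 and Atg7, of autophagosome formation, fell by 0.96 and 0.61 on distal chromosome 6.

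Of 45 genes of G2 and mitosis 7 rose and 3 fell, or 15 and 7 with the replicate block, and 2 to 4 rose without any 1 library other than ethanol control replicate 3. Outside both regions 1 fell. Bub1, a spindle checkpoint kinase, rose from 189, 179.9 and 186 CPM to 225, 218 and 231 CPM (0.28, SE 0.05, adjusted p = 0.0007), and Kif2c, a kinesin that depolymerizes microtubules, fell by 0.24. Of 20 trophoblast genes 1 rose and 2 fell, or 3 and 5 with the replicate block, and without ethanol control replicate 3 the counts were 2 and 1. Outside both regions 1 fell. Plet1 rose from 7.19, 6.73 and 6.75 CPM to 13.99, 15.6 and 10.95 CPM (0.97), and Tead4, a factor of the trophoblast lineage on distal chromosome 6, fell from 39.96, 30.96 and 27.97 CPM to 20.3, 13.2 and 14.4 CPM (-1.04). Of 20 genes of sterol export and fatty acid synthesis 2 rose and 4 fell, or 6 rose with the replicate block, and 2 fell without ethanol control replicate 3. Npc2, which exports cholesterol from lysosomes, fell from 54.0, 58.1 and 60.6 CPM to 39.3, 36.6 and 40.8 CPM (-0.56), and Elovl6, a fatty acid elongase, rose by 0.45. Of 28 hypoxia targets 3 rose and 1 fell, or 8 and 6 with the replicate block, and 1 rose without ethanol control replicate 2. Gys1, glycogen synthase, was the gene that fell, by 0.24.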

How the data were processed

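RNA was profiled from mouse ES cells after 72 h. Per the labels' protocols, total RNA was depleted of ribosomal RNA and made into directional libraries. The values deposited by the authors are raw counts of reads per gene, with closing HTSeq rows. The submitters' processing notes list mm9 and, without their roles, cutadapt, STAR, HTSeq, edgeR, Bowtie 1.1.2, MACS2 and DiffBind. The strand setting of HTSeq was not given in the sources used here. Overlapping genes on opposite strands may therefore share reads. Closing rows were kept out of totals and tests. Reads on no feature were 26.4% to 28.7% and ambiguous reads 0.869% to 0.908% of the 6 libraries. Symbols of 32620 of 37310 gene rows came from GENCODE M21, on another assembly, so it served for names and gene order and no gene coordinates are given. Of all gene counts, 3.92% were on rows that had no symbol. The 5 rows of Y-linked genes were left out.

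Counts were fitted with edgeR 4.0.16 (limma 3.58.1, R 4.3.3; robust quasi-likelihood test, TMM scaling, filterByExpr) over all 9 libraries and 3 group means, leaving 6 residual degrees of freedom. The adjusted p (Benjamini-Hochberg) runs over 16191 genes. Depth of 16909139 to 23544893 counted reads limits precision for genes below 1 CPM, and p-values cover the spread between libraries. Lists were described by counts and medians without a test. Medians per library were taken against the mean of the ethanol control, where the plan had named the mean of the 6 libraries. The members and lists were chosen with earlier results of these data known.

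Genes were named by a rule: Zbtb11, Thumpd3 and Gt(ROSA)26Sor; the 12 largest rises and 12 largest falls among called autosomal genes with an official symbol and a mean log2 CPM of at least 2; in each list up to 4 called members with the smallest p, or up to 2 where none was called; 18 regulators; and the 3 called genes with the largest change in each described region. Other genes were named after their values were seen.

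Groups share replicate numbers. Deviations of same-numbered libraries from their group means correlated at 0.11 to 0.25 over 3 pairs, and the replicate block treats these libraries as matched. Those of differently numbered libraries correlated at -0.23 to -0.02. Deviations sum to 0 within a group, so these negative values are no separate evidence. What a shared number stands for is not stated in the labels. Alternatives were the replicate block, DESeq2 1.42.0, other scaling, other filters, a fit of the 6 libraries and leaving out each library. Promoters came from RefSeq (GRCm38.p6) and were searched on both strands. A few genes are not reported here.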

Additional observations from a re-analysis of the deposited data

How the results depend on the processing

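The medians of chromosome 8 and distal chromosome 6 kept their direction under every alternative run. Of the called genes, 1458 were higher and 1347 lower, but with library totals, and outside both regions (1122 higher and 1140 lower), more were lower than higher. With the replicate block 5007 genes were called, 2570 higher and 2437 lower. Leaving out each library in turn gave 1869 to 2376 called genes, 948 to 1221 higher and 921 to 1155 lower, with 148 to 188 at least 2-fold higher and 107 to 164 at least 2-fold lower. The lowest count of 1869 came without ethanol control replicate 2, and these fits have fewer libraries. DESeq2 called 2567 genes, RLE factors 2796, a filter at 1 CPM 2801, the fit of the 6 libraries 2852, no filter on low counts 3161, and library totals 2755 (1315 higher and 1440 lower). The median of chromosome 8 was 0.23 to 0.25 and that of distal chromosome 6 -0.60 to -0.57 over the fits that left out a library. Without a filter they were 0.23 and -0.54, a set that adds genes with few reads. Of 201 named genes, 158 kept direction and call under every alternative in which they were tested. Genes near 0 changed sign over the fits that left out a library: Trp53 ranged from -0.023 to 0.046, Esrrb from -0.047 to 0.10, Gt(ROSA)26Sor from -0.26 to 0.047, Sox2 from -0.072 to 0.018 and Myc from -0.28 to 0.0086. With library totals Trp53 was -0.0041. None of these was called. For the other genes whose call changed the cause was not tested. Depth limits genes below about 1 CPM, where a call rests on few reads.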
